A study of Mus musculus with 14 samples.

Results

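The 10 paternally expressed imprinted genes Peg3, Usp29, Snrpn, Ndn, Mest, Peg10, Sgce, Nnat, Impact and Plagl1 were taken by symbol from a table of 23298 genes, and all 10 were found. RNA had been sequenced from 14 mouse embryonic stem (ES) cell lines, each derived from its own blastocyst and grown with leukemia inhibitory factor on embryonic fibroblast feeder cells, which were depleted before RNA isolation. BC lines had a C57BL/6J mother and a CAST/EiJ father, and CB lines had a CAST/EiJ mother and a C57BL/6J father. There were 3 BC XX, 3 BC XY, 2 BC XO, 3 CB XX and 3 CB XY lines, and the XO lines had arisen spontaneously in the BC cross. The lines were undifferentiated, the labels name no drug or engineered allele, and the XO state was studied in BC lines alone. In all lines the members can therefore be compared between sex chromosome complements within a cross, and between reciprocal crosses in which the paternal allele is CAST/EiJ in BC cells and C57BL/6J in CB cells. Lines are numbered as in the labels, except that CB XX lines are numbered by the columns of the table.

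Imprinted genes are transcribed from the allele of a particular parent, because DNA methylation laid down in the egg or sperm is kept through early development. At genes expressed from the father's allele the maternal copy is usually methylated at or near the promoter, and the methylation is protected by the zinc finger protein Zfp57 with Trim28. Cultured mouse ES cells, above all XX lines, are known for a fragile hold on such methylation. The table gives the sum of both alleles, so allelic usage was not measured here.

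The members lay in a few clusters on the mm9 genome, the build to which the reads were aligned. Peg3 (chromosome 7, 6656603 to 6683132, minus strand) encodes a zinc finger protein, and Usp29, a deubiquitinase gene, starts beside it on the opposite strand. Snrpn (chromosome 7, 67127388 to 67285105), which encodes a spliceosomal protein, and the intronless gene Ndn (69493163 to 69494814), which encodes a MAGE-family growth regulator, belong to the Prader-Willi domain. Sgce, encoding epsilon-sarcoglycan (chromosome 6, 4624350 to 4697204, minus strand), and Peg10, a retrotransposon-derived gene (4697306 to 4710514, plus strand), start next to each other, and Mest, which encodes an alpha/beta hydrolase, is on the same chromosome (30673547 to 30698457). Nnat, encoding the neuronal proteolipid neuronatin (chromosome 2, 157385814 to 157388258), lies within the span of the oppositely transcribed Blcap. Plagl1, a zinc finger transcription factor gene (chromosome 10, 12810497 to 12851500), and Impact, a regulator of translational control, complete the set. Annotation was from GENCODE for this build, whose model of Usp29 is a lone exon away from Peg3 (6913871 to 6916480).

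Promoter sequences are shown for the start that Peg3 and Usp29 share, for the start shared by Snrpn and Snurf, for Mest, which had the most extreme value in any line, and for Ndn, which differed most steadily between XX and XY lines. They were read from RefSeq's promoter table (GRCm38.p6), which held 7 of the 10 members, and were placed on mm9 by an exact match. Peg10, Sgce and Impact are named only. Capitals mark TGCCGC, the core bound by Zfp57, or its reverse complement GCGGCA, and all runs end just before the annotated start.
Between the starts of Peg3 and Usp29 (chr7:6683131-6683293, mm9, plus strand, in the sense of Usp29): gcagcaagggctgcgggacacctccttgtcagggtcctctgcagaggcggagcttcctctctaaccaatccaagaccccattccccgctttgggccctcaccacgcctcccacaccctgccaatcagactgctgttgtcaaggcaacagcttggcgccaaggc
Snrpn and Snurf (chr7:67150086-67150335, mm9, minus strand): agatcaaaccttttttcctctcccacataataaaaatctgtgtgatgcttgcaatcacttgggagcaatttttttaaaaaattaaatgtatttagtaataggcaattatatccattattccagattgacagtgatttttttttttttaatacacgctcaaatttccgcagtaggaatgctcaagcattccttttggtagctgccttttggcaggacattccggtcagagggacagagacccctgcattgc
Mest (chr6:30687800-30688049, mm9, plus strand): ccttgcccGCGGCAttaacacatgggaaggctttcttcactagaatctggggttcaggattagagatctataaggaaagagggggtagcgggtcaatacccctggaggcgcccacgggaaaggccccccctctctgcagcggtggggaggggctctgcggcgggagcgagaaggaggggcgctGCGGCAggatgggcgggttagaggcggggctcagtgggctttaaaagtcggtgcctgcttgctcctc
Ndn (chr7:69492913-69493162, mm9, plus strand): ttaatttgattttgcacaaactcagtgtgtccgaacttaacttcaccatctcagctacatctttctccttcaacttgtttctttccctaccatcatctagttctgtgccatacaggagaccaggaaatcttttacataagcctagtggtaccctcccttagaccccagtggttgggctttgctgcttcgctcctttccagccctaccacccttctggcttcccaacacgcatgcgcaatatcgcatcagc

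The Mest window held 2 matches to the motif on either strand, the Plagl1 window (not printed) held 1, and the windows of Snrpn, Nnat and Ndn and the shorter stretch between Peg3 and Usp29 held 0. The motif was present in 8.7% of 32851 promoter windows of 250 bases, with 2 or more matches in 0.9%, and in 6.3% of windows of 163 bases. CG dinucleotides, the sites that DNA methylation uses, numbered 19 at Plagl1, 14 at Mest, 12 at Nnat, 5 at Ndn, 3 at Snrpn and 5 between Peg3 and Usp29, against a median of 6 over all windows of 250 bases and of 4 over those of 163 bases. These windows do not reach the whole of the regions whose methylation controls each cluster.

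Values are reads per gene after the authors' scaling of each line, which left 28150946 to 30657803 scaled reads a line. Scaling factors by the median of ratios, used in an alternative, were 0.9938 to 1.0065 on these values, so that alternative could change little. From the smallest step between values, the unscaled reads on genes were about 11904414 in the shallowest line (CB XY 2) and 69646230 in the deepest (BC XX 2), and the lowest member value of any line, Usp29 in BC XY 1, rested on about 37 reads. The 10 ES cell markers summed to 108348 to 186174 in every line. CB XY 2 and CB XY 3, so labelled, had Uty, a Y-linked gene, at 19.6 and 45.4, within the range of the XX lines (12.8 to 195), against 945 to 2088 in the other XY lines. Their X-linked genes had a median log2 deviation from the mean over lines, less that of autosomal genes, of -0.476 and -0.175. This deviation was -0.435 to -0.146 in the other XY and XO lines and 0.286 to 0.494 in XX lines. Why Uty was low was not tested, and called differences that use these 2 lines are also given without them. The 20 markers of mesenchymal cells, the kind that serve as feeders, summed to 66430 to 160883 in the 3 BC XX lines and to 8098 to 33919 in the other 11 lines, and 13 of the 20 were higher in BC XX than in BC XY lines. Fewer cells of a type and less RNA per cell cannot be told apart in such bulk samples. No marker of the list was at 0, and its mean log2 level was used as a covariate where results were compared with it. That level was 10.53 to 11.69 in BC XX, 7.85 to 9.47 in BC XY, and 9.26 and 9.38 in BC XO lines. Within the BC cross, marker level and X chromosome complement therefore cannot be told apart by such a fit. Libraries had been prepared in batches of 6, but which lines shared a batch was not used here.

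Members spanned a wide range of abundance. Per kilobase of annotated exon, the median scaled value over the 14 lines was highest for Impact (3220), Snrpn (2780) and Peg10 (2336), intermediate for Peg3 (915) and Mest (717), and lower for Ndn (261), Plagl1 (137), Nnat (103), Sgce (73.1) and Usp29 (34.8). The last of these rests on an incomplete gene model. Between the highest and the lowest line, Impact varied 2.22-fold, Snrpn 2.61-fold and Nnat 5.9-fold. Mest varied 21.6-fold. The SD of log2 values within groups was 0.21 for Impact, the steadiest member, and 0.57 for Peg10 and 1.06 for Mest, the most variable ones. The median over the members was 0.39, against 0.32 over 16261 tested genes. It was 0.27 over the 11463 tested genes with a mean log2 level at or above that of the lowest member.

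**Figure D1:**
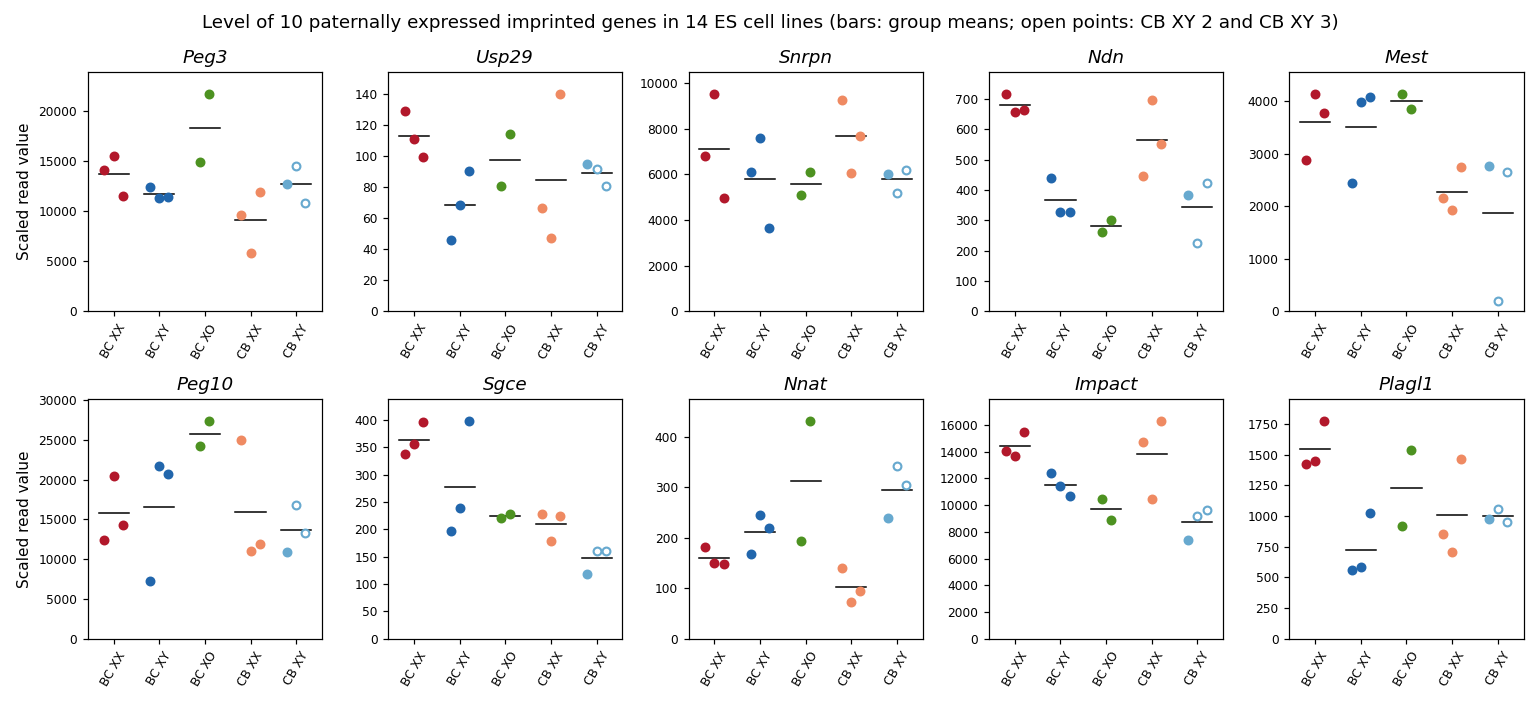
Scaled read value of each member in the 14 lines, by group on the horizontal axis, with a black bar at the group mean and open points for CB XY 2 and CB XY 3. Ndn is higher in all 6 XX lines (445 to 718) than in the 6 XY lines (224 to 440), and Mest in CB XY 2 (192) stands far under the other 13 lines.

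Setting XX against XY lines asks how the X chromosome complement relates to the members. Of the 10 members, 1 was higher in XX lines (Ndn), 1 was lower (Nnat), and 8 did not pass the test. The test was limma on log2(value + 5) with Benjamini-Hochberg adjustment over all genes, at an adjusted p under 0.05, and it called 5.21% of 15311 genes in this comparison. The median log2 difference of the members was 0.41, and that of all genes was -0.03. The difference was above 0 for 8 of 10 members and for 46.8% of all genes.

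Ndn was the most regular of the members. Its scaled values were 718, 656 and 663 in BC XX lines 1 to 3 and 445, 698 and 552 in CB XX lines. They were 440, 329 and 329 in BC XY lines and 384, 224 and 422 in CB XY lines. All 6 XX lines lay above all 6 XY lines, although the lowest XX line (CB XX 1) and the highest XY line (BC XY 1) nearly met. Such a separation was seen for 1 of the 10 members and for 3.52% of all genes tested. Ndn rose 1.76-fold in XX lines (log2 difference 0.82, SE 0.18, limma with Benjamini-Hochberg adjusted p = 0.0206). Without BC XX 1 it was 0.77 (limma adjusted p = 0.0548). Within BC lines its log2 difference was 0.90 (SE 0.24, limma adjusted p = 0.0457), a call that the loss of any of 9 lines ended (BC XX 1 to 3, BC XY 2 and 3, BC XO 1 and 2, CB XY 1 or CB XX 3, limma adjusted p 0.0509 to 0.161). With the mean log2 level of the mesenchymal markers as a covariate the difference within BC lines was 0.05 (SE 0.32, limma adjusted p = 0.973). Marker levels did not overlap between BC XX and BC XY lines, so this fit cannot separate marker level from sex. Within CB lines the difference of Ndn was 0.74 (SE 0.24, limma adjusted p = 0.117), or 0.53 without CB XY 2 and CB XY 3, which left CB XY 1 alone. It passed in CB lines under 1 of 10 alternatives, chosen after seeing the data (limma adjusted p = 0.0337). That fit had the marker covariate and subtracted the chromosome level. The interaction of sex with cross was 0.16 (SE 0.34, limma adjusted p = 0.934).

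Ndn also moved with the mesenchymal markers across part of the lines. The 4 highest values of Ndn were in the 4 lines with the highest mean log2 marker level, namely the 3 BC XX lines (10.53, 11.25 and 11.69) and CB XX 2 (10.01). Among the BC XX lines, by contrast, Ndn was highest in line 1, where the markers were lowest. With the marker level as a covariate the XX minus XY difference of Ndn fell to 0.48 (SE 0.19, limma adjusted p = 0.211). Without CB XY 2 and CB XY 3 it was 0.73, with an adjusted p of 0.0599 by limma. CB XX 1, which had a low marker level (8.51), had an Ndn value of 445. CB XX 3, with a marker level of 9.77, had Ndn at 552. The BC XO lines 1 and 2, with marker levels of 9.26 and 9.38, had Ndn at 261 and 300. In BC XY lines 1 to 3 the marker levels were 9.47, 8.55 and 7.85, with Ndn at 440, 329 and 329. In CB XY lines 1 to 3 they were 9.46, 8.05 and 9.78, with Ndn at 384, 224 and 422.

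Nnat moved the other way. Its values were 182, 149 and 147 in BC XX lines and 139, 73.1 and 95.1 in CB XX lines, against 167, 244 and 220 in BC XY lines and 238, 341 and 305 in CB XY lines. Of the XX lines, BC XX 1 (182) alone lay above the lowest XY line (BC XY 1, 167). Nnat fell by 0.95 on the log2 scale in XX lines (SE 0.24, limma adjusted p = 0.0338), and by 1.51 within the CB cross (SE 0.31, limma adjusted p = 0.0172). Within the BC cross the log2 difference was -0.38 (SE 0.31, limma adjusted p = 0.487), and the interaction, 1.13 (SE 0.43), did not pass the test (limma adjusted p = 0.451). With the mesenchymal covariate the log2 difference over both crosses was -1.02 (limma adjusted p = 0.0952) and that in CB lines was -1.41 (limma adjusted p = 0.0124). Leaving out BC XY 2, BC XX 2, CB XX 2, CB XX 3 or any CB XY line ended the call over both crosses (limma adjusted p 0.0513 to 0.0815), and leaving out CB XY 2 or CB XX 2 ended that in CB lines (limma adjusted p = 0.0725 and 0.0887). Without both CB XY 2 and CB XY 3 the differences were -0.76 and -1.22, and neither passed (limma adjusted p = 0.165 and 0.282). Blcap, which spans Nnat on the opposite strand, had a log2 difference of -0.01 between XX and XY lines (limma adjusted p = 0.98). Libraries kept the strand, but whether the counting used it is not given in the sources used here, so reads of Nnat and Blcap may be mixed.

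Impact (chromosome 18, 13130761 to 13151457) passed within the CB cross. It was 14042, 13667 and 15455 in BC XX lines and 14713, 10420 and 16299 in CB XX lines, and in XY lines it was 12385, 11459 and 10642 (BC) and 7353, 9173 and 9606 (CB). CB XX 2 was the sole XX line inside the XY range. The log2 difference over both crosses was 0.49 (SE 0.14, limma adjusted p = 0.061), and it passed with the cross as a covariate (SE 0.13, limma adjusted p = 0.0266) and without BC XY 1 or CB XX 2 (limma adjusted p = 0.0363 and 0.0365). Within CB lines Impact rose by 0.65 (SE 0.17, limma adjusted p = 0.0464), whereas in BC lines the difference was 0.32 (limma adjusted p = 0.267). This call was lost without any of 10 single lines, with an adjusted p up to 0.186 by limma without CB XY 1, and was retained without BC XY 1, BC XY 3, BC XX 3 or CB XX 2. The interaction was -0.32 (SE 0.24, limma adjusted p = 0.741). Without CB XY 2 and CB XY 3 the difference in CB lines was 0.88 but rested on CB XY 1 alone (limma adjusted p = 0.126).

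Plagl1 had a log2 difference of 0.55 between XX and XY lines (limma adjusted p = 0.2), and it differed within the BC cross. Its values were 1420, 1444 and 1774 in BC XX lines and 561, 581 and 1027 in BC XY lines, with no overlap, and it rose 2.21-fold (log2 difference 1.14, SE 0.28, limma adjusted p = 0.0323). The call was lost without BC XY 1, BC XY 2, BC XX 2 or BC XX 3 (limma adjusted p 0.0778 to 0.136) and without both CB XY 2 and CB XY 3 (limma adjusted p = 0.0557). In the CB cross the XX lines (853, 707 and 1467) lay on either side of the XY lines (977, 1059 and 950), with a log2 difference of -0.05 (SE 0.28, limma adjusted p = 0.948). The interaction was the largest of the 10 members, 1.19 (95% interval 0.33 to 2.05), yet did not pass (limma adjusted p = 0.364). Chromosome 10 as a whole was low in CB XX 2 by -0.213 on the log2 scale, and that line also had the lowest Plagl1 value of the CB lines. With the mesenchymal covariate, whose levels did not overlap between BC XX and BC XY lines, the BC difference of Plagl1 was 1.39 with a larger SE, 0.48 (limma adjusted p = 0.348).

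Snrpn, Usp29, Peg3, Peg10, Sgce and Mest did not pass between XX and XY lines, with log2 differences of 0.35, 0.26, -0.15, 0.10, 0.48 and 0.53. Their 95% intervals all included 0, and the interval of Mest, -0.74 to 1.80, was the widest. Without CB XY 2 and CB XY 3 the differences were 0.35, 0.34, -0.13, 0.14, 0.33 and -0.20 in the same order. Within crosses, 2 members passed in BC lines (Ndn and Plagl1, both higher in XX), where 5.70% of 16261 genes did, and 2 passed in CB lines (Impact higher, Nnat lower), where 3.57% did. Groups of 3 lines that did not overlap were seen for 4 members in BC (Usp29, Ndn, Impact and Plagl1) and 4 in CB (Ndn, Sgce, Nnat and Impact), and for 27.1% and 23.2% of all genes. For Usp29 in BC lines the values were 129, 111 and 99.2 in XX and 46.2, 68.2 and 90.4 in XY cells (log2 difference 0.73, SE 0.34, limma adjusted p = 0.222). The interaction of sex with cross passed for 0 members by limma, with 3 members at an unadjusted p under 0.05 (Peg3, Nnat and Plagl1), and for 0.0738% of all genes, with 9.05% of genes at an unadjusted p under 0.05.

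**Figure D2:**
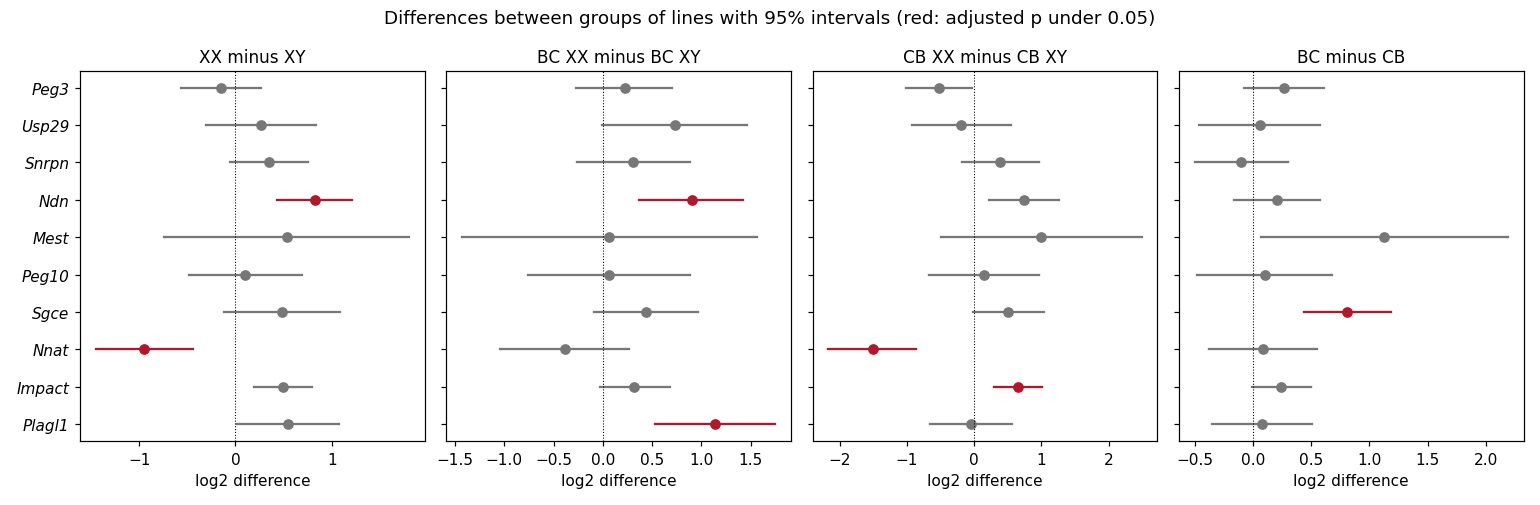
Log2 difference of each member with its 95% interval for XX minus XY over both crosses, within BC, within CB, and for BC minus CB, with values past the threshold in red. Ndn (0.82) and Nnat (-0.95) pass in the panel of both crosses, and Sgce (0.81) passes between the crosses.

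**Figure D3:**
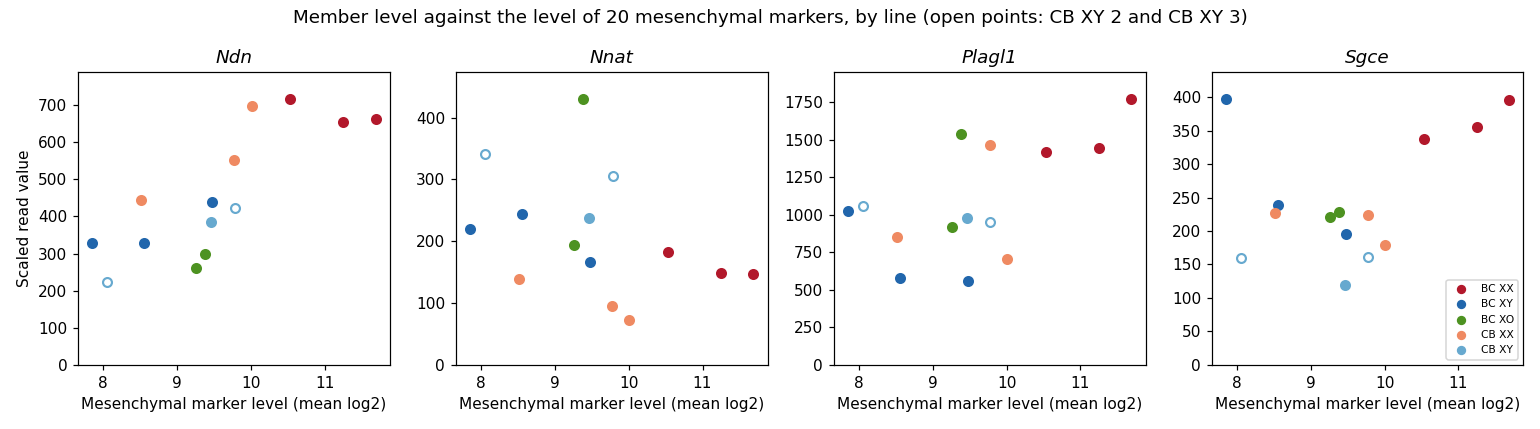
Scaled value of Ndn, Nnat, Plagl1 and Sgce in each line against the mean log2 level of 20 mesenchymal markers, with open points for CB XY 2 and CB XY 3. The 3 BC XX lines lie at 10.53 to 11.69 on the horizontal axis, and Ndn is at 656 or above in these lines and in CB XX 2 alone.

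The reciprocal crosses differ in which strain's allele is the paternal, expressed copy. Lines of both crosses are F1 hybrids that carry an autosomal copy from each strain. Reads were aligned to the C57BL/6J reference, the paternal strain of CB and the maternal strain of BC lines. The strain of the expressed allele, other features that the lines of a cross share, and alignment therefore cannot be told apart. Of the 10 members, 1 was called between BC and CB lines, Sgce, where 16.0% of 16261 genes were called. The median log2 difference of the members was 0.15, against 0.01 for all genes.

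Sgce was 337, 355 and 396 in BC XX, 196, 239 and 398 in BC XY, and 221 and 228 in BC XO lines. It was 227, 179 and 224 in CB XX and 119, 160 and 161 in CB XY lines. BC XY 1 (196) was the only BC line of the compared XX and XY lines inside the CB range, and within each sex the BC lines all lay above the CB lines. The share of all genes that separated in this way was not counted. Between XX and XY lines, also 3 against 3, it was 27.1% in BC and 23.2% in CB. These are shares of other contrasts, so the separation of Sgce has no background here. Of the members, 3 separated between XX lines of the crosses and 2 between XY lines. Sgce rose 1.76-fold in BC lines (log2 difference 0.81, SE 0.18, limma adjusted p = 0.0106), with 0.78 between XX lines (limma adjusted p = 0.0702) and 0.85 between XY lines (limma adjusted p = 0.103). The BC to CB call held under all 9 alternative settings and all 14 fits that left out a line, with log2 differences between 0.67 and 0.99. This call came nearest to the threshold without CB XY 2 and CB XY 3, where the difference was 0.95 and CB XY 1 was the only CB XY line left. The level of chromosome 6 was raised in 3 CB lines, CB XX 1 (0.235), CB XY 2 (0.271) and CB XY 3 (0.236), and after its subtraction the difference of Sgce was 0.91 (limma adjusted p = 0.00626). The 10 neighbouring genes that started within 1 Mb of Sgce had a median log2 difference of 0.44 in the same direction. Their median was 0.96 between XX lines of the crosses and 0.02 between XY lines. They were highest in BC XX 2 (0.94) and BC XX 3 (1.16). With the mesenchymal covariate the difference of Sgce was 0.94 (SE 0.18, limma adjusted p = 0.0113).

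Peg10, which starts back to back with Sgce, did not pass between the crosses. Its values were 12471, 20523 and 14335 in BC XX, 7248, 21664 and 20687 in BC XY, 24974, 11068 and 11868 in CB XX and 10902, 16797 and 13229 in CB XY lines. The crosses overlapped across nearly their whole range, and the log2 difference was 0.10 (95% interval -0.48 to 0.68, limma adjusted p = 0.833).

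Mest was higher in 5 of 6 BC lines than in every CB line. It was 2878, 4143 and 3771 in BC XX and 2443, 3986 and 4074 in BC XY lines, and 2152, 1922 and 2739 in CB XX and 2765, 192 and 2649 in CB XY lines. The line labelled CB XY 2 had 6.66% of the median of the other 13 lines. This value rested on about 78 reads. Chromosome 6 as a whole was raised there, and the 16 genes starting within 1 Mb of Mest had a median 0.22 above their mean over lines. Ndn also had its lowest value in CB XY 2, and the other 8 members lay within the range of the other lines. The log2 difference of Mest between crosses was 1.13 (SE 0.49, limma adjusted p = 0.127), and without CB XY 2 and CB XY 3 it was 0.48 (SE 0.19, limma adjusted p = 0.148).

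Impact, Peg3, Usp29, Snrpn, Ndn, Nnat and Plagl1 had log2 differences of 0.24, 0.27, 0.06, -0.10, 0.21, 0.09 and 0.08 between BC and CB lines, and none passed. No member separated all 6 BC from all 6 CB lines, as 2.80% of all genes did. Between XX lines of the crosses 0 members passed, with 3 at an unadjusted p under 0.05, and 7.15% of genes did, with 26.5% at that unadjusted p. Between XY lines 0 passed by limma, with 3 at an unadjusted p under 0.05, against 0.640% of all genes, with 18.7% at that unadjusted p. Peg3 was 9583, 5870 and 11917 in CB XX and 14148, 15494 and 11495 in BC XX lines, which overlapped, with a log2 difference of 0.64 (SE 0.23, limma adjusted p = 0.0972). Without CB XX 3, Peg3 (0.86, limma adjusted p = 0.0228) and Plagl1 (0.98, limma adjusted p = 0.0276) passed between XX lines, and Sgce passed there without BC XY 3 (limma adjusted p = 0.0373).

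**Figure D4:**
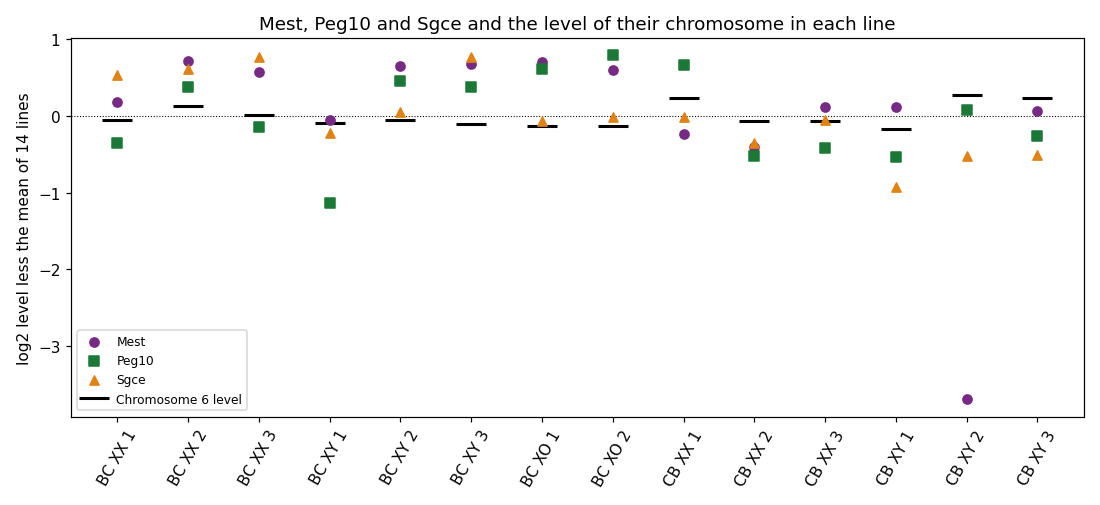
Log2 level of Mest, Peg10 and Sgce in each line less the mean over 14 lines, with a black dash for the level of chromosome 6. Mest falls far under the dash in CB XY 2, where the chromosome stands at 0.271, and Sgce lies above it in all 3 BC XX lines.

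XO lines have a single X chromosome, as XY lines do, and no Y chromosome. Between BC XX and BC XO lines 1 of 10 members passed, Ndn, where 4.66% of 16261 genes did. Ndn was 261 and 300 in XO lines, under all 3 BC XX and all 3 BC XY values, and XX lines were 2.4-fold higher than XO lines (log2 difference 1.26, SE 0.27, limma adjusted p = 0.025). With the mesenchymal covariate, whose levels did not overlap between BC XX and BC XO lines, this difference was 0.65 (SE 0.28, limma adjusted p = 0.356). The call was also lost without BC XX 2, BC XX 3, BC XO 1 or BC XO 2 (limma adjusted p 0.0605 to 0.23). Impact (10485 and 8910), Nnat (194 and 431), Peg10 (24188 and 27391) and Sgce (221 and 228) in XO lines also did not overlap with the XX lines, with log2 differences of 0.57, -0.85, -0.74 and 0.68, and none of these passed. With Ndn, 5 of the 10 members thus did not overlap between these groups of 3 and 2 lines, as 47.2% of all genes did not.

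Between BC XO and BC XY lines 0 members passed by limma, with 2 at an unadjusted p under 0.05 (Peg3 and Plagl1), and 1 gene in the whole table passed, 0.00615% of those tested, with 1.49% at that unadjusted p. The XO lines had the highest Peg3 value of the 14 lines (BC XO 2, 21716, with 14908 in BC XO 1), against 12457, 11268 and 11455 in BC XY lines (log2 difference 0.62, 95% interval 0.07 to 1.16, limma adjusted p = 0.999). BC XO 2 also had the highest Peg10 and Nnat values of all lines. Nnat differed 2.22-fold between the 2 XO lines, and with 2 lines in the group such a gap widens each interval.

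Members that share a start region or an imprinting centre were compared line by line over the 14 lines, as 3 pairs. For Peg3 and Usp29, whose starts are 163 bases apart, Pearson's r was 0.61 (permutation p = 0.0199, Benjamini-Hochberg adjusted 0.0598) and Spearman's rho was 0.59 (permutation p = 0.0292, adjusted 0.0876). Without the lines farthest from the median of Peg3, BC XO 2 and CB XX 2, r was 0.35, so the relation rests on those lines. For Peg10 and Sgce r was 0.33 and rho 0.44 (permutation p = 0.251 and 0.119, adjusted 0.251 and 0.149), and r without BC XO 2 and BC XY 1 was 0.36. For Snrpn and Ndn r was 0.40 and rho 0.41 (permutation p = 0.164 and 0.149, adjusted 0.247 and 0.149), and r without BC XX 2 and BC XY 3 was 0.23.

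After subtraction of group means, r was 0.70 for Peg3 and Usp29 (p = 0.0988 over all 2592 arrangements of lines within their groups, an exact permutation test, adjusted 0.262), with 0.28 when the lines farthest from the median, CB XX 2 and CB XX 3, were left out. It was 0.62 for Peg10 and Sgce (exact permutation p = 0.174, adjusted 0.262), with 0.46 without BC XY 1 and CB XX 1, and 0.01 for Snrpn and Ndn (exact permutation p = 0.958). The matching rho values were 0.54, 0.50 and 0.06, with adjusted exact permutation p of 0.28, 0.28 and 0.861. Over the 12 lines left without CB XY 2 and CB XY 3, r was 0.61, 0.34 and 0.34 for these pairs in turn (adjusted permutation p = 0.0964, 0.288 and 0.288). Snurf, which shares its start and transcript with Snrpn, held 5.75% to 5.96% of the Snrpn value in every line, so these 2 entries behave as shares of the same reads and Snurf was not counted as a further gene.

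Over the whole table, the genes whose pattern over the 14 lines was most like that of a member, by Pearson's r of log2 values, were often on other chromosomes. For Peg3 the most alike was Peg3as (r = 0.947), which is annotated antisense to it and whose reads may be mixed with those of Peg3. For Ndn they were Hoxb6, Atg4a and Slc2a9 (0.963, 0.958 and 0.952), for Impact Serpina7, Htatsf1 and Alas2 (0.946, 0.920 and 0.910), and for Sgce Rassf6, Mttp and Taf9b (0.917, 0.916 and 0.904). Nnat was most like Tmem2 (0.888), Peg10 most like Zbtb34 (0.880) and Mest most like Ppargc1a (0.837). Usp29 and Plagl1, members on different chromosomes, were each other's closest match (0.875). These values describe all 14 points, CB XY 2 and CB XY 3 included, which share group differences, and no test was made of them.

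The other paternally expressed imprinted genes, a list of 19 with 18 tested, gave 3 called genes between XX and XY lines, all higher in XX, where 5.21% of all genes were called. Zrsr1, a splicing factor gene, was 1010 to 1327 in XX and 592 to 758 in XY lines (log2 difference 0.82, SE 0.11, limma adjusted p = 0.00149). Peg12 of the Prader-Willi domain was 139 to 223 against 59.6 to 125 (1.03, SE 0.21, limma adjusted p = 0.0141), and Mcts2 was 513 to 838 against 373 to 498 (0.58, SE 0.14, limma adjusted p = 0.0336). None of these 3 overlapped between XX and XY lines, as 3.52% of all genes tested did not. The median log2 difference of the list was 0.38, with 13 of 18 above 0, against 46.8% of all genes. Within BC lines Zrsr1 and Peg12 passed (0.78 and 1.15), within CB lines Zrsr1 passed (0.85), and between the crosses Inpp5f was higher in BC lines (0.46, limma adjusted p = 0.03). Of all genes, 5.70% passed within BC lines, 3.57% within CB lines and 16.0% between the crosses. Without CB XY 2 and CB XY 3, Peg12 and Zrsr1 passed between XX and XY lines and Mcts2 did not (limma adjusted p = 0.147), and with the mesenchymal covariate Zrsr1 alone passed (0.79, limma adjusted p = 0.0149). Inpp5f passed under neither setting. In XO lines Zrsr1 was 728 and 1108, the first within the range of BC XY lines (618 to 758) and the second between that range and BC XX lines (1139 to 1290).

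Maternally expressed imprinted genes, a list of 18 with 17 tested, gave 3 called genes between XX and XY lines, all lower in XX, where 5.21% of all genes were called. The median of the list was -0.04. Phlda2, which restrains placental growth, was 87.4 to 223 in XX and 488 to 945 in XY lines (log2 difference -1.99, SE 0.22, limma adjusted p = 0.000705). Cdkn1c, a cell cycle inhibitor gene of the same domain, was 142 to 379 against 348 to 879 (-1.27, SE 0.26, limma adjusted p = 0.0158), and Slc22a18, again of that domain, was 6.88 to 16.9 against 16.2 to 112 (-1.61, SE 0.35, limma adjusted p = 0.0177). Phlda2 also passed without CB XY 2 and CB XY 3 (limma adjusted p = 0.00353) and with the mesenchymal covariate (-1.74, limma adjusted p = 0.00759), Cdkn1c with the covariate alone, and Slc22a18 under neither. The XO lines had Phlda2 at 817 and 671, beside the XY lines. Between crosses, Grb10 (1.75) and Zim1 (0.94) were higher in BC lines. Of 7 imprint maintenance factors, Zfp57, Trim28, Setdb1, Dppa3 and Dnmt1 passed in no comparison, while between crosses Zfp445 was higher in BC lines (0.34, limma adjusted p = 0.036) and Uhrf1 lower (-0.46, limma adjusted p = 0.0429). Between crosses 16.0% of all genes passed. None of Grb10, Zim1, Zfp445 and Uhrf1 passed between crosses without CB XY 2 and CB XY 3, or with the mesenchymal covariate.

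**Figure D5:**
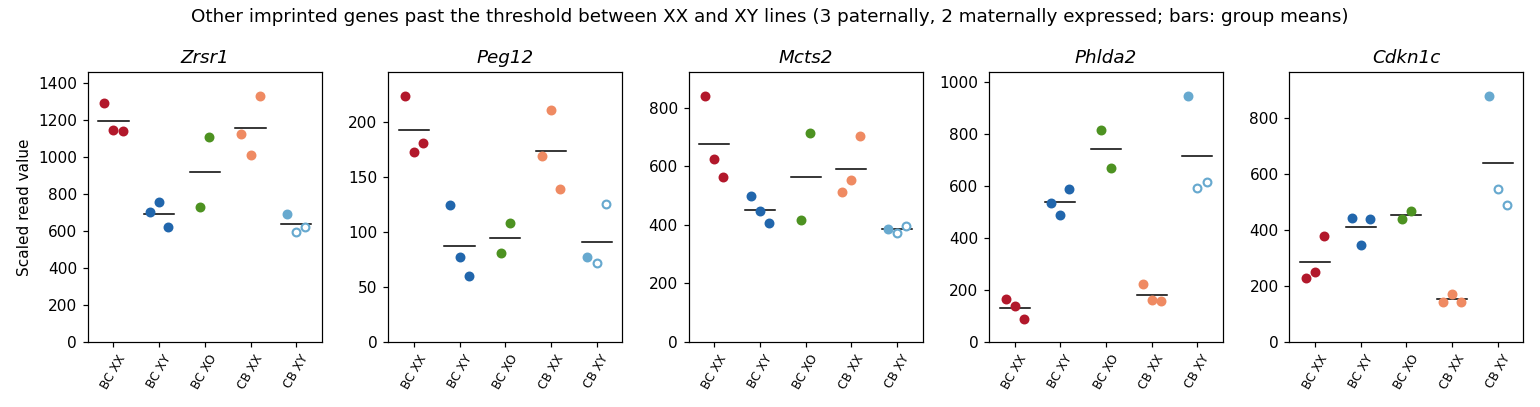
Scaled read value of 5 imprinted genes outside the 10 members in the 14 lines, by group, with a black bar at the group mean and open points for CB XY 2 and CB XY 3. The paternally expressed Zrsr1, Peg12 and Mcts2 are higher in every XX line than in every XY line, and the maternally expressed Phlda2 is lower in every XX line (87.4 to 223) than in every XY line (488 to 945).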

How the data were processed

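The deposited table holds, per gene and line, reads that the authors had counted and scaled, a signal whose values were whole multiples of a step in each line for 98.502% to 98.874% of genes (within 0.1 of a read). Stranded total RNA libraries were read as single ends of 50 bases, aligned with TopHat2 to mm9 and summarised with Cuffdiff, per the labels and the study's methods. The read totals given here derive from that step and cover counting error only.

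Values were tested as log2(value + 5) with limma 3.58.1 in R 4.3.3, trend on, with Benjamini-Hochberg adjustment over all genes at 0.05. XX and XY lines were compared in a fit of their 12 lines, and other comparisons in 1 fit of all 14 lines in 5 groups. Genes needed a value of 10 in at least 6 or 2 lines respectively, and 15 genes listed at 0 throughout a group but reaching 100 elsewhere were left out. All members passed the filters. Chromosome level was the median log2 deviation of a chromosome's genes. Correlations used 100000 resamples (permutation, two-sided, scipy 1.17.1), or, after subtraction of group means, every arrangement of lines within groups, chosen after seeing the data. The fits were tested on simulated data. P-values measure the spread between lines from separate blastocysts. No pair of lines shared more than 0.264% of values. Named genes were all members, list genes past the threshold, and the most alike genes by Pearson's r. The members and lists were chosen with earlier results of these data known. Alternatives changed the scaling, pseudocount, filter, lines, covariates and chromosome level.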

Additional observations from a re-analysis of the deposited data

Results flagged for a closer look

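Among the 6 XY lines, the Mest value of CB XY 2 (192) was separated from the nearest other line by 0.832 of the whole range on the log2 scale, above Dixon's critical value of 0.625 for 6 values. This was the sole such gap in 20 tests over the members in XX and in XY lines, and chance alone flags about 1 in 20 groups. No member differed in its XX to XY contrast between the crosses by the test of the interaction.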

How the results depend on the processing

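No called value of a member changed sign under an alternative or without a line. With the mesenchymal level as a covariate, 0 members passed in XX minus XY, BC XX minus BC XY and BC XX minus BC XO, where calls over all genes went from 797 to 415, from 927 to 6 and from 758 to 39. The same member counts came from a fit chosen after seeing the data that also subtracted the chromosome level. That fit called 1 member, Sgce, in BC XY minus CB XY. In CB XX minus CB XY it called 2, Nnat and Ndn (limma adjusted p = 0.0122 and 0.0337), and not Impact (limma adjusted p = 0.051). Without CB XY 2 and CB XY 3, 0 passed in XX minus XY and in CB XX minus CB XY and 1 in BC XX minus BC XY. Without the filter on low values 0 passed in BC XX minus BC XY and 1 in CB XX minus CB XY. Subtracting the chromosome level left 1 in CB XX minus CB XY, and fitting only the groups compared left 0. Leaving out each line in turn gave 1 to 3 members in XX minus XY, 0 to 2 in BC XX minus BC XY, 0 to 2 in CB XX minus CB XY, 0 to 2 in BC XX minus CB XX and 0 to 1 in BC XX minus BC XO. Subtracting the chromosome level took the pair of Peg3 and Usp29 past the threshold (r = 0.65, permutation, adjusted p = 0.0296). Same-numbered lines did not deviate together (r between -0.494 and 0.27), and the replicate block, fitted where labels number both groups, gave 1 member in BC XX minus BC XY and 0 in BC XX minus BC XO (Ndn, limma adjusted p = 0.0551 and 0.0858). No paired analysis was possible because CB XX columns carry no labelled number in the comparisons that use them. Of 82 values not called, 3 were called under an alternative. Tests on recovered reads were not run. Shallow lines and groups of 2 or 3 lines limit the precision.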
